A study of Caenorhabditis elegans with 2 samples.

Results

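The genes described here are the histone genes of *Caenorhabditis elegans*: every protein-coding gene of the WBcel235 assembly whose name is his- followed by a number. There were 72 of them among 19973 protein-coding genes on the nuclear chromosomes. Binding of ZTF-23, a zinc finger protein, was measured by chromatin immunoprecipitation and sequencing (ChIP-seq) in strain RW12279, whose allele st12279 carries TY1, EGFP and 3xFLAG tags inserted at ztf-23 on chromosome I by CRISPR. Chromatin came from whole embryos at mid-embryonic stage (age 1.5 hours in the labels), collected by bleaching, and an antibody against GFP was used. The labels gave 1 group of 2 biological replicates, and one label field names ztf-23 as the antibody where the description names GFP. Both replicates carried the tagged allele, no untagged or control library was analysed here, and the depth of sequencing is unknown here. Whole embryos mix many cell types, so strong binding in few cells and weak binding in many cannot be told apart.

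Core histones H2A, H2B, H3 and H4 form the octamer around which DNA is wrapped, and linker histone H1 binds where DNA enters and leaves it. Most core histone copies are needed in bulk while DNA is replicated, and in this worm they lie in many near-identical copies, usually as pairs of genes transcribed away from each other from a short shared stretch. H3.3 variants are made and deposited outside replication as well, and their genes stand apart from the clusters.

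The predicted proteins of the core histone and H3.3 genes matched their names. All 16 H4 genes encoded 1 identical protein of 103 residues, and all 15 H3 genes encoded 1 identical protein of 136 residues. The 17 H2A genes encoded 2 proteins, 1 of them shared by 16 genes, and the 16 H2B genes encoded 4. The 5 H3.3 genes each encoded a different protein, between 78.2% (his-70) and 94.1% (his-71) identical to H3 over the aligned residues. Where several proteins were annotated for an H3.3 gene, the one nearest to H3 was used. The protein of his-24, the linker histone H1, had 208 residues. It was compared with the core types only, and the closest was H2B at 26.5% identity. The remaining genes, his-73 and his-39, encoded fragments of 46 and 67 residues, identical to H3 at 45 of 46 and to H2B at 65 of 67 aligned residues. RefSeq and Ensembl gave different symbols to 22 of the 72 genes, and RefSeq's symbols are used.

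A gene was counted as bound where a peak summit, the highest point of a peak, lay within 500 bp of its annotated start. The authors' lists are thresholded by the irreproducible discovery rate (IDR), which compares the ranks of regions between replicates or pseudo-replicates, and the main list is the combined one they named conservative (2213 nuclear peaks). It is set beside the thresholded list of each replicate alone (938 and 1210 peaks for replicates 1 and 2) and the combined ranked list, which holds all 104781 regions before any threshold. The signal value of a peak is the authors' own and its scale is not stated. It is used only to describe and rank peaks within 1 list, and in every list it is the strongest region within 500 bp that is given.

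Several stretches that the results turn on are printed first, so that the copies can be read beside their peaks. They come from the RefSeq copy of WBcel235, the same assembly as ce11, and run 5′ to 3′: for a pair, the plus strand between both starts, and for a single gene, the 150 bases upstream of its start on its own strand. Capitals mark the 8-base word GGGGACAC or its reverse complement GTGTCCCC, the commonest 8-base word upstream of histone genes in these sequences. The his-37 and his-24 stretches, chrV:9546955-9547104 and chrX:14489944-14490093 (both plus strand), belong to an H4 gene and the H1 gene with conservative peaks.
his-37: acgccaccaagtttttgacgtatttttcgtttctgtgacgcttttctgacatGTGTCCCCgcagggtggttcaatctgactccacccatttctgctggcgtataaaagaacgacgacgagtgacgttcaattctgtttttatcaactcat
his-24: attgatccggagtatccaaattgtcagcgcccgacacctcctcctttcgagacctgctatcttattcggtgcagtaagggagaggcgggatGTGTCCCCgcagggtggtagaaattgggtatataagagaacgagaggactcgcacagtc
The stretches of the H3 and H4 pairs his-6/his-5 (chrV:8534978-8535213) and his-2/his-1 (chrV:16042284-16042519) both have a conservative peak nearby, have the same length and are 87.7% identical, but only the first holds the word.
his-6/his-5: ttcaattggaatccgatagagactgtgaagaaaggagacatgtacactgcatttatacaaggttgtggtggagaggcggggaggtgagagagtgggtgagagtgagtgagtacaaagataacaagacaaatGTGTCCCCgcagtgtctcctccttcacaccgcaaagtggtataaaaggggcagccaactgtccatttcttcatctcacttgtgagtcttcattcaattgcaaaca
his-2/his-1: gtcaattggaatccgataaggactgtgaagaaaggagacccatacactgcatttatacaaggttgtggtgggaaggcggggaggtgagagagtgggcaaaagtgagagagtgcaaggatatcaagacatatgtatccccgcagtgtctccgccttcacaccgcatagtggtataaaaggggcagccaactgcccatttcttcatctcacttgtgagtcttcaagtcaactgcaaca
The stretch of the H4 and H3 pair his-60/his-59 (chrIV:7487993-7488248) holds the word and had a peak in the other combined list and in that of replicate 2, but not in the conservative one. Other stretches are repeated exactly: that of the H4 and H3 pair his-14/his-13 (chrII:13819938-13820209) occurs 3 times in the genome, also as his-10/his-9 and his-25/his-26, and had no region in any of the 3 ranked lists.
his-60/his-59: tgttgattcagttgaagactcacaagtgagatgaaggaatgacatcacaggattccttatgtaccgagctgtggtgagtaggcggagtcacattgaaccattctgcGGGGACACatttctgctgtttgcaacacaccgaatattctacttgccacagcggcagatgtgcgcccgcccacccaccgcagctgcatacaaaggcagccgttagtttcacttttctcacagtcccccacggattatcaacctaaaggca
his-14/his-13: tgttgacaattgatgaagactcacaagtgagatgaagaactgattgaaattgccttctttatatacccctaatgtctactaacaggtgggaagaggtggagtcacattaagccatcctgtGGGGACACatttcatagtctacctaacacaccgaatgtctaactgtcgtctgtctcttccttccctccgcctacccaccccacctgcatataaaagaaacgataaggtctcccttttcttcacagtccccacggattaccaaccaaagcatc
The H3.3 gene his-72 (chrIII:12369051-12369200, minus strand) has no such word and is shown for contrast.
his-72: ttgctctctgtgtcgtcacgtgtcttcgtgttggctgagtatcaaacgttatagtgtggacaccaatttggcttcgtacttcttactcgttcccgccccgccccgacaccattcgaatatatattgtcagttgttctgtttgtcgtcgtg

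Conservative peaks lay at 12 of the 72 histone genes (16.7%), against 5.29% of all protein-coding genes. Since a pair shares its peak, these 12 genes had 8 distinct peaks at 7 loci: the single genes his-37 (H4) and his-24 (H1), and the pairs his-67/his-68 (H4 and H2A), his-6/his-5 (H3 and H4), his-63/his-64 (H3 and H4), his-2/his-1 (H3 and H4) and his-61/his-62 (H2A and H2B). No test was run on this share: genes of a pair share peaks and sequence and are not independent. In the other combined thresholded list the count was 14 genes, against 5.55% of all genes, and the pair added was his-60/his-59. In the thresholded list of replicate 1 alone 6 histone genes were bound, against 2.7% of all genes, and in that of replicate 2 alone 12, against 3.43%.

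**Figure D1:**
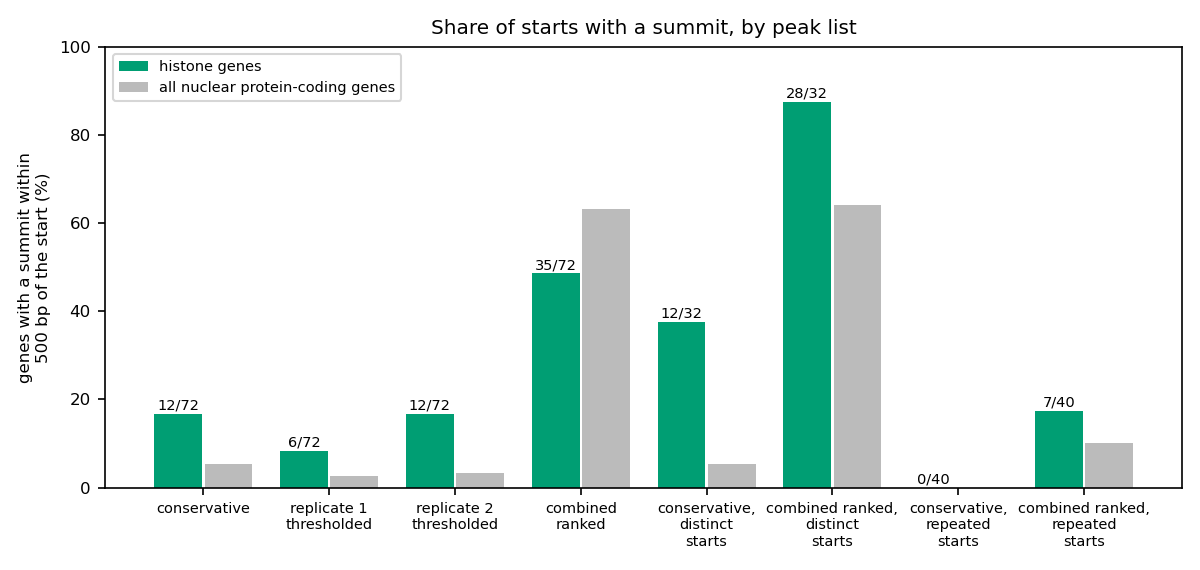
Bars give the share of starts (percent, from 0) with a summit within 500 bp, for histone genes (green, counts above) and all nuclear protein-coding genes (grey), in 4 lists and by sequence class, where distinct starts have at least 25% unique words and repeated starts have fewer. Histone genes stand above all genes in the thresholded lists (16.7% against 5.29% in the conservative list) and below them in the combined ranked list (48.6% against 63.3%).

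Below the thresholds the order was the other way round in the combined list and in replicate 1, but not in replicate 2. A region of the combined ranked list lay within 500 bp of 35 of the 72 histone starts (48.6%), against 63.3% of all protein-coding starts. The ranked list of replicate 1 had 27 histone genes (37.5%), against 43.6% of all genes. That of replicate 2 had 33 (45.8%), against 43.9%. Across these 3 ranked lists, 38 histone genes had a region in at least 1 and 34 had none. A second combined ranked list of the authors gave the same signal values at all 35 genes, and added his-71 (34.99), his-11 (16.27), his-73 (12.7) and his-39 (10.46). The his-11 and his-39 genes are among the 34.

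Of these 34 genes, 33 were near-identical copies by the measure that follows. Within 500 bp of each start, the share of 50-base words that occur only once in the genome on either strand was counted. It was 0% at 25 histone genes, and none of these 25 had a region in any of the 3 ranked lists. A limit of 25%, set after the values were seen, divided the genes into 40 repeated starts (0% to 19.0% unique words) and 32 distinct starts (45.0% to 100%), with none in between. Of the 40 repeated starts none was bound in the conservative list, and neither was any of the 307 protein-coding genes of that kind (0.0%). A combined ranked region lay at 7 of the 40, against 10.1% of the 307. Histone genes made up 13.0% of those 307 genes, and of the other 267, a ranked region lay at 24 (8.99%). Of the 32 distinct histone starts, 12 were bound in the conservative list (37.5%), against 5.37% of the 19666 distinct protein-coding starts, and 28 had a combined ranked region (87.5%), against 64.1%. How reads matching several places were treated is not stated in the sources, so an absent peak at a repeated start is no measurement of absent binding. The part of read placement in these counts was not tested.

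**Figure D2:**
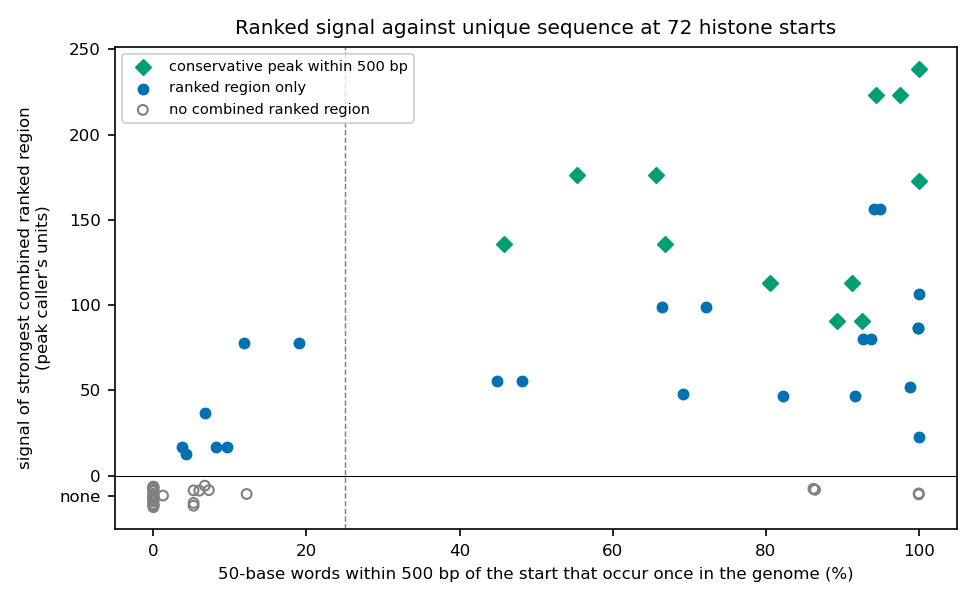
Each point is 1 of the 72 histone genes: the share of 50-base words within 500 bp of its start that occur once in the genome (percent) against the signal value of its strongest combined ranked region, with genes without one placed at "none" and spread vertically for visibility. All 12 genes with a conservative peak lie to the right of the dashed line at 25%, and 25 genes sit at 0% without a region.

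The strongest conservative peak at a histone gene was that of his-37, an H4 gene with no divergent partner (chrV:9546851-9547194). Its signal value was 238.56 in the combined list, where it ranked 364 of 2213, and 93.42 and 138.16 in the ranked lists of replicates 1 and 2. The summit lay 82 bp upstream of the start, inside the stretch printed above and 12 bp from the middle of the word in capitals, and the peak passed the threshold in each replicate alone. The peak of his-67 (H4) and his-68 (H2A), the only pair that joins these types (chrI:9988809-9989152), had a signal value of 223.53 (rank 402), with 74.08 in replicate 1 and 150.98 in replicate 2. Its summit lay between the genes, 218 bp upstream of his-67 and 151 bp upstream of his-68, and it too passed the threshold in each replicate. These were the only conservative loci of histone genes bound in both single-replicate thresholded lists.

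The genes his-6 and his-5, an H3 and H4 pair, shared a peak (chrV:8534919-8535262) with a signal value of 176.53 (rank 613), and with 76.98 and 102.31 in replicates 1 and 2. Its summit lay near the middle of the stretch printed above, 114 bp upstream of his-6 and 123 bp upstream of his-5. The peak of his-24, the linker histone H1 gene (chrX:14489950-14490293), had 172.85 (rank 650), with 63.37 and 109.06 in replicates 1 and 2. That summit lay 28 bp downstream of the start, and 26 bp inside the start of M163.19, an annotated non-coding RNA gene, so that peak cannot be given to his-24 alone. At both loci the peak passed the threshold in replicate 2 alone and not in replicate 1 alone.

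The his-63 (H3) and his-64 (H4) peak (chrIV:11406673-11407016) had 135.62 (rank 977), with 69.26 in replicate 1 and 62.75 in replicate 2, and passed the threshold in replicate 1 alone. Its summit lay 16 bp inside his-63 and 271 bp upstream of his-64, and the non-coding RNA gene F22B3.19 starts 42 bp away. The his-2 (H3) and his-1 (H4) peak (chrV:16042472-16042815) had 113.01 (rank 1484), with 54.59 and 75.43 in replicates 1 and 2. Its summit lay inside the coding gene his-1, 124 bp downstream of its start, not in the printed stretch between the genes. The pair his-61 (H2A) and his-62 (H2B) had a pair of overlapping peaks of low rank. The first (chrIV:7485975-7486318) had 90.4 (rank 2049) with its summit 70 bp inside his-61, and the second (chrIV:7486201-7486544) had 41.26 (rank 2110) with its summit between the genes, 156 bp upstream of his-61 and 172 bp upstream of his-62. In the single-replicate ranked lists the strongest region there had 41.99 in replicate 1 and 59.09 in replicate 2. The peaks of his-2/his-1 and his-61/his-62 passed the threshold in neither replicate alone.

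**Figure D3:**
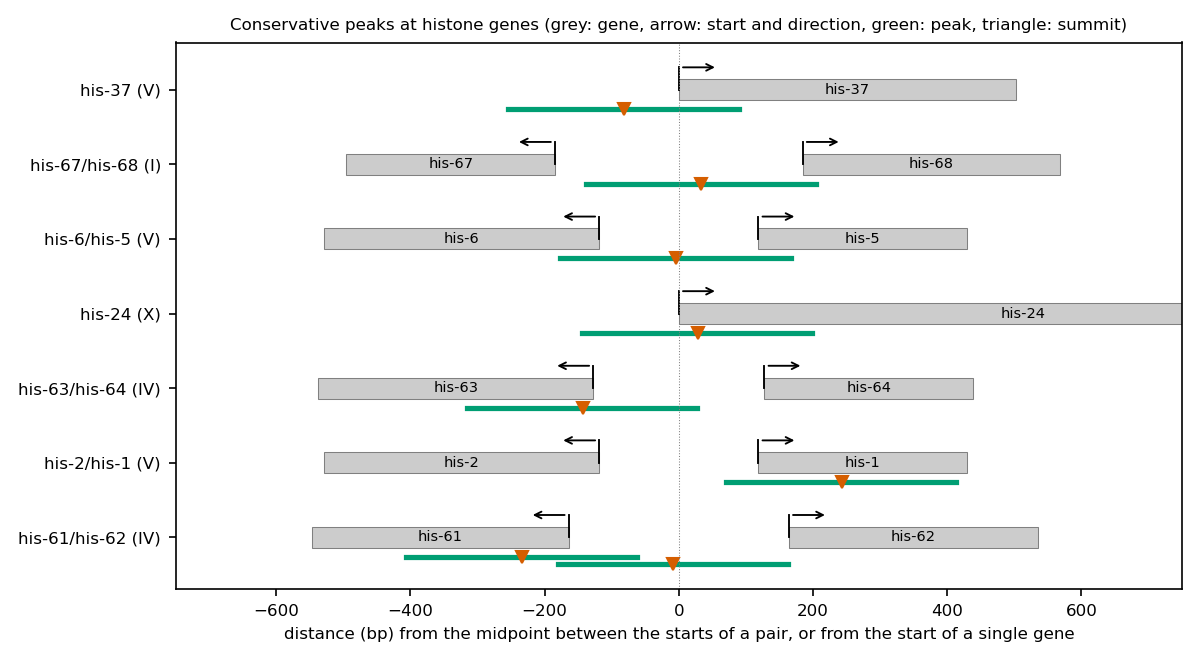
The 8 conservative peaks at histone genes are drawn to scale as distance (bp) from the midpoint between both starts of a pair, or from the start of a single gene, with genes in grey, starts and directions as arrows, peaks as green lines and summits as triangles. Summits lie upstream of the starts at his-37, his-67/his-68 and his-6/his-5, and inside a histone gene at his-24, his-63, his-1 and, for the first of its peaks, his-61.

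Signal values of bound histone genes were ordinary for the list. Over the 12 genes the median conservative signal value was 154.23, against 152.45 over the 1057 protein-coding genes with a conservative summit. Over the 35 histone genes with a combined ranked region the median was 86.7, against 46.23 over the 12641 protein-coding genes with one, and over distinct starts it was 98.89, against 46.28. In these medians a region shared by a pair was counted for each of its genes. The 12 bound histone genes had a median of 69.26 in the ranked list of replicate 1, against 69.27 for the bound protein-coding genes, and of 88.87 in that of replicate 2, against 82.96.

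Several loci lay just outside the conservative list. The pair his-60 and his-59, printed above, had a combined ranked region of 156.29, higher than 4 of the conservative peaks at histone genes, and a score of 286 there, where the conservative list starts at 830. This score, from 0 to 1000, rises with reproducibility, between replicates or between pseudo-replicates. In the other combined lists, thresholded and ranked, the same region had a score of 1000. In replicate 1 the pair had 59.14 and in replicate 2, where it passed the threshold, 79.32. The pair his-35 (H2A) and his-41 (H2B) passed the threshold in replicate 2 with 66.11, had 49.14 and 35.11 in replicate 1, and had 86.7 with a score of 650 in the combined ranked list and 776 in the second one. The pair his-4 (H2B) and his-3 (H2A) passed it in replicate 2 with 65.31, had 33.06 in replicate 1 and 98.89 with a score of 565 in the combined ranked list and 124 in the second one. On the inner side of the threshold, the his-61/his-62 peaks had the lowest score of the histone peaks, 841.

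**Figure D4:**
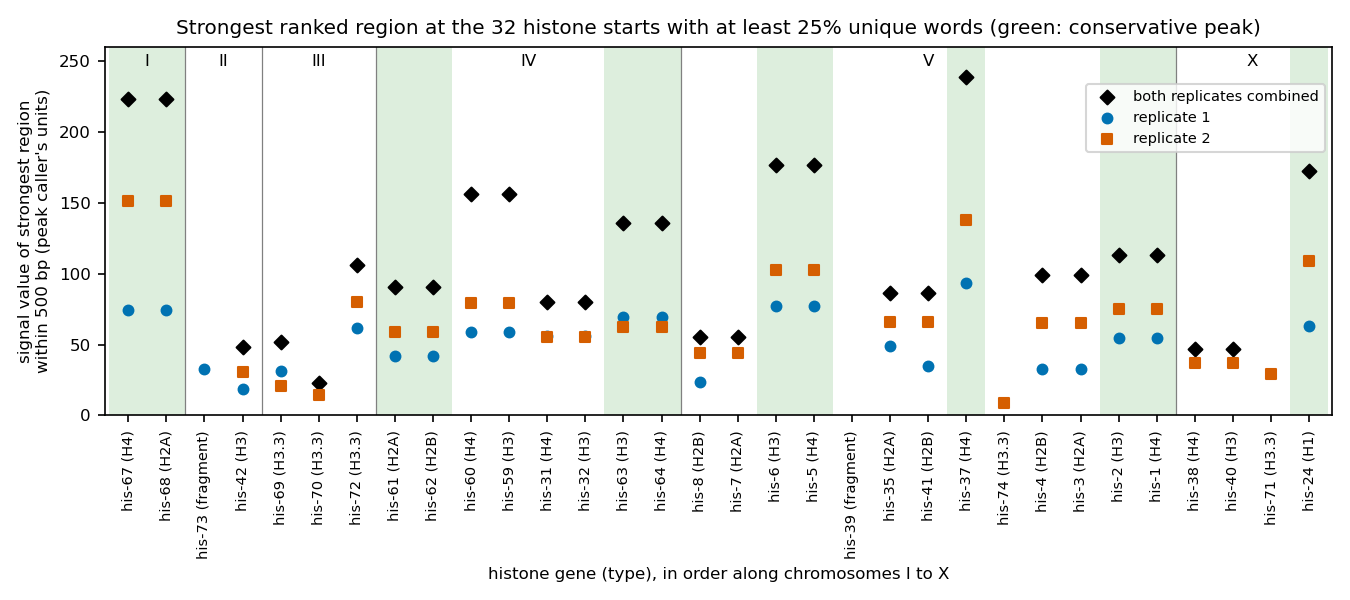
For the 32 histone genes with at least 25% unique words, in order along the chromosomes, points give the signal value (the peak caller's units) of the strongest region within 500 bp in the combined ranked list (black), replicate 1 (blue) and replicate 2 (orange), and green bands mark genes with a conservative peak. The 3 lists are ranked separately, so heights compare genes within a colour only; his-37 is highest in black, and his-60 and his-59 stand above several banded genes.

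By type, conservative peaks were spread over the core histones and H1. They lay at 5 of 16 H4 genes, 3 of 15 H3 genes, 2 of 17 H2A genes and 1 of 16 H2B genes. Among distinct starts alone these were 5 of 8 H4, 3 of 7 H3, 2 of 5 H2A and 1 of 4 H2B genes, too few for a comparison between types. All 24 distinct core histone starts had a combined ranked region, against 64.1% of all distinct protein-coding starts. They include 11 divergent pairs, whose genes share the same strongest region, so the 24 are not separate regions. Signal values of the 24 ran from 46.61 to 238.56 with a median of 98.89, against a median of 46.28 over all distinct protein-coding starts with one. The weakest of the 24 were his-38 and his-40, an H4 and H3 pair on chromosome X. They had 46.61 in the combined list, 36.72 in replicate 2 and no region in replicate 1. Close above was his-42, the H3 gene without a divergent partner, with 48.04, and with 18.97 and 30.41 in replicates 1 and 2.

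None of the 5 H3.3 genes was bound in the conservative list, against 5.41% of all protein-coding genes with at least 90% unique words, a share at which none among 5 genes is no result about H3.3. Their starts had 98.8% to 100% unique words. The strongest was his-72, with 106.36 in the combined ranked list, a score of 88 there and 100 in the second one, 61.85 in replicate 1 and 79.72 in replicate 2. It passed the threshold in replicate 1 alone, with summits 19 and 220 bp inside the gene. The small nucleolar RNA gene Y49E10.36 starts 286 bp away from the second of these summits. The gene his-69 had 52.18 in the combined list, with 31.19 and 20.52 in replicates 1 and 2. The gene his-70 had 22.62, with 14.18 in replicate 2 and none in replicate 1. The gene his-71 had 29.23 in replicate 2, none in replicate 1 and none in the combined ranked list used here, but 34.99 in the second combined one. The gene his-74 had 8.91 in replicate 2 and no region in the other ranked lists. Of the gene fragments, his-73 had 33.09 in replicate 1 and 12.7 in the second combined ranked list, and his-39 had 10.46 in that second list only. H3.3 and core histone genes differed in chromosome position, pairing and sequence together, and with 5 H3.3 genes no difference between them was tested.

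Of the 72 genes, 62 formed 31 divergent pairs whose starts lay 228 to 369 bp apart (median 259 bp). Conservative peaks lay at 5 of the 31 pairs: 3 of 14 pairs of H3 with H4, 1 of 16 pairs of H2A with H2B and the 1 pair of H2A with H4. None of the 20 pairs with repeated starts had one. Among the 11 distinct pairs these were 3 of 6 pairs of H3 with H4 and 1 of 4 of H2A with H2B. These are too few for a comparison between pair types. No share over divergent pairs of other genes is given here. At distances this short a summit between the starts lies within 500 bp of both, and the fragments were 200 to 800 bp long per the labels, so a peak cannot be given to one gene of a pair. The stretch between the starts occurred more than once in the genome, letter for letter, for 17 pairs, of which none had a conservative peak and 2 had a ranked region. For the other 14 pairs the stretch occurred once, and 5 of these had a conservative peak and 13 a ranked region. The 14 include his-46/his-45 and his-55/his-56, whose stretches are 99.6% identical, and his-17/his-18, all with repeated starts. The pair without a region was his-55/his-56. Of the 10 histone genes outside pairs, his-37 and his-24 were bound.

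Chained at gaps of up to 10 kb, the 72 genes fell into 19 clusters or single genes, 7 of which held a conservative peak. The largest, 13 genes over 10.55 kb of chromosome II, held none, and only his-42 at its end, with 69.2% unique words, had a region in the combined ranked list. In it the stretches of his-14/his-13, his-10/his-9 and his-25/his-26 are 1 sequence and those of his-16/his-15, his-12/his-11 and his-44/his-43 another. On chromosome V, the 6 genes of the his-50 to his-53 cluster (5.97 kb) had no region, and in the 8 genes of the his-28 to his-18 cluster (8.43 kb) only his-17 and his-18 did. That pair, an H3 and an H4 gene with 11.9% and 19.0% unique words, had 77.58 in the combined ranked list, the highest value at a repeated start, and passed no threshold. The lowest values were also at repeated starts on chromosome IV: 12.51 at his-58 (H2B), 16.91 at his-57 (H2A) and 16.95 at his-47 (H2A) and his-48 (H2B).

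Distinct and repeated pairs stood side by side in some clusters. On chromosome IV, his-63/his-64 had its conservative peak while his-66/his-65 of the same cluster (6.33 kb), with a repeated stretch shared with his-47/his-48, had no region. In a 6-gene cluster elsewhere on that chromosome, his-31/his-32 had 80.06 in the combined ranked list, with 56.18 and 55.43 in replicates 1 and 2, and the flanking pairs his-29/his-30 and his-33/his-34, identical to each other between their starts, had none. Distinct pairs of 1 cluster differed as well: on chromosome V, his-6/his-5 was bound while the neighbouring his-8/his-7 (H2B and H2A) had 55.31 in the combined ranked list with a score of 122, and 241 in the second one. Unique words were fewer at his-8 (48.11%) and his-7 (44.96%) than at his-6 (55.36%) and his-5 (65.65%). The his-8/his-7 stretch was 95.5% identical to that of another pair, against 87.7% for his-6/his-5. The part of this in the contrast was not tested.

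Sequence shared by the copies was then described. The word marked in the printed stretches was picked from the 300 bases upstream of the histone genes themselves, as the 8-base word present there at most genes, so its count is a description. It was found, on either strand, upstream of 44 of the 72 histone genes, against 104 of the 19973 protein-coding genes (0.521%). The count was 13 of 17 H2A, 12 of 16 H2B, 8 of 15 H3 and 10 of 16 H4 genes, the H1 gene his-24, and none of the 5 H3.3 genes. Genes of a pair share a stretch: 21 of the 31 pairs held the word between their starts, and each such stretch was counted for both genes. Of the 44 genes, 32 were among the 40 histone genes with repeated starts. Stretches that are exact copies of each other were each counted. Extended to 10 bases, ATGTGTCCCC or its reverse complement GGGGACACAT, it was still upstream of 34 histone genes, against 0.21% of all genes.

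The word and the peaks overlapped in part. It lay upstream of 8 of the 12 bound histone genes and of 4 of the 20 distinct histone starts that were not bound. Those 4 are the pairs his-60/his-59 and his-4/his-3. The 20 include the 5 H3.3 genes and the 2 gene fragments, none of which had the word. Genes of a pair share a stretch, and of the 5 pairs with a conservative peak 3 held the word. Whether the word goes with binding was not tested. The word was found in 5 of the 8 conservative peaks at histone genes, with its middle 12 bp from the summit at his-37, 16 bp at his-67/his-68, 22 bp at his-6/his-5, 57 bp in the second his-61/his-62 peak and 83 bp at his-24. The peaks at his-63/his-64 and his-2/his-1 and the first at his-61/his-62 had none. Among 1859 other conservative peaks away from small RNA genes, 23 held it. Of the 60 other protein-coding genes with the word upstream, 6 were bound in the conservative list (10%), against 5.29% of all, and 41 had a ranked region (68.3%), against 63.3%. Conversely, the 5 words of 8 bases most concentrated within 50 bp of the summits of those other peaks, AAACGCGC, CTTGCGCA, GCGCCAGC, AAGTGCGC and CCGAGAGG, counted on both strands, were found in 189 of the 1859 (10.2%) and in none of the 8 histone peaks. No match here shows only that these letters were not in these windows.

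Among 24 other genes of histone supply, 7 were bound in the conservative list, against 5.29% of all protein-coding genes, and 21 had a combined ranked region, against 63.3%. The list was put together with earlier results of these data known. The strongest was unc-85, which encodes a histone H3 and H4 chaperone of the Asf1 kind, with 324.25 in the combined list and 131.9 and 191.96 in replicates 1 and 2. The other Asf1 gene, asfl-1, had 55.57 in the combined ranked list and passed no threshold. The gene lin-53, for a histone-binding protein of the RbAp46/48 kind, had 249.01, with 103.82 and 145.92, and chaf-2, for a subunit of chromatin assembly factor CAF-1, had 229.87, with 108.74 and 110.54. Of the linker histone-like genes hil-1 to hil-8, only hil-7 was bound in the conservative list. It had 145.18, with 79.89 and 73.46 in replicates 1 and 2. The genes unc-85, lin-53, chaf-2 and hil-7 passed the threshold in each replicate alone.

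The other bound genes of the list passed it in neither replicate alone. They were htz-1, for the variant H2A.Z, with 131.22 in the combined list, xnp-1, for a chromatin remodeller of the ATRX kind, with 108.76, and cdl-1, for the stem-loop binding protein of histone mRNA, with 98.48. Some of these summits were as near or nearer to a neighbour: that at htz-1 lay 325 bp upstream of it and 151 bp upstream of wapl-1, and that at lin-53 lay 238 bp upstream of it and 229 bp upstream of nra-2. Those at xnp-1 and cdl-1 lay 483 and 466 bp upstream, near the edge of the 500 bp window. The gene xnp-1 had no region in the ranked list of replicate 2. In the other combined thresholded list 8 of the 24 genes were bound, against 5.55% of all genes: cdl-1 was not, and hil-3 and spt-16 were. Neither centromeric H3 gene was bound: hcp-3 had 77.39 and cpar-1 had 31.28 in the combined ranked list. The genes hira-1, for a chaperone of H3.3, and nap-1, for one of H2A and H2B, had 10.6 and 71.26 there. No region of the 3 ranked lists was found at hil-2, hil-8 or hmg-4.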

How the data were processed

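Peak lists of 2 ChIP-seq replicates and of both combined were read as deposited, on build ce11 per the labels: 8 lists, of which 4 were thresholded and 4 ranked. The score (0 to 1000) and the signal value of each region are the authors' own, as deposited; they were used to describe and rank regions, and signal values were not compared between lists. The sources used here do not give the aligner, the peak caller, the treatment of reads matching several places or the depth, so precision cannot be stated.

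Gene starts came from Ensembl release 115, symbols and products from RefSeq, matched by WormBase gene identifier. At 65 of the 72 histone genes the annotated start was the first coding base. A gene was bound where a summit lay within 500 bp. Divergent pairs had starts within 2000 bp, and clusters were chained at 10 kb. Words that occur once were counted in the genome at 50 bases. Coordinates are 1-based. Assignment and word counts were tested on simulated data. Python 3.11.15, pandas 2.3.3, numpy 2.4.6 and Biopython 1.88 were used.

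No test between groups was possible with 1 group; shares are given beside those of all protein-coding genes. The members and lists were chosen with earlier results of these data known. Genes are named that had a summit in a thresholded list, were among the 10 strongest, were H1 or variants, or were weakest, with the bound genes of the supply list; copies named for their sequence, his-42, the weak distinct pairs and the unbound supply genes were added after their values were seen. Alternatives were the other combined list, the 500 strongest peaks, peaks overlapping both single-replicate lists, each replicate's list alone, other windows, starts, assignments, word lengths, cluster gaps and pair limits. The 25% and 90% limits on unique words and the 8-base words were chosen after seeing the data.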

Additional observations from a re-analysis of the deposited data

How the results depend on the processing

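The count of 12 bound histone genes stayed within 1.5 times under the other combined list, other windows, the first coding base and peak overlap (9 to 14 genes). The share of all genes moved more, from 2.61% within 200 bp (9 histone genes) to 7.2% within 1000 bp (13 histone genes). The 8 distinct peaks became 7 to 9 under the other combined list and other windows. The counts were 3 genes at 2 peaks among the 500 strongest peaks (1.66% of all protein-coding genes) and 3 genes at 2 peaks where a peak had to overlap both single-replicate lists (2.13%). With the thresholded list of a single replicate it was 6 to 12 genes and 5 to 8 peaks, the lower values being those without replicate 2. The shares of all genes were 2.7% without replicate 2 and 3.43% without replicate 1. Each peak given only to its nearest start left 7 genes, against 4.2% of all, since a pair then counts once. Among starts with at least 90% unique words, chosen after seeing the data, 6 of 18 were bound, against 5.41% of all such starts. The ranked count (27 to 46 genes), its median signal (70.72 to 86.7), the unique share, the clusters and the pairs stayed within 1.5 times. The share of all genes with a ranked region moved from 38.3% to 73.0% over the same settings, so the difference from all genes was less steady than the count. With summits within 200 bp it was 28 of 72 histone genes, against 38.3% of all genes. In the ranked list of replicate 2 it was 33 (45.8%), against 43.9%. No paired analysis was possible because both replicates belong to 1 group. Depth is unknown, so no detection limit can be given.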
